A study of Mus musculus with 4 samples.

Results

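Transcript levels of 9 genes were followed in mouse hearts under pressure overload: the ubiquitin ligase genes Trim63, Trim54, Trim55, Fbxo32, Fbxo40 and Asb2, and the FoxO transcription factor genes Foxo1, Foxo3 and Foxo4. They were taken by name from the 21761 genes with a named RefSeq or Ensembl transcript on the array, through 14 probes. The samples were hearts of male C57BL/6J mice after transverse aortic constriction (TAC, a surgical narrowing of the aorta that loads the left ventricle) or a sham operation. Hearts were taken at 2 weeks, with an age of 10 weeks in the labels, or at 8 weeks, with an age of 16 weeks. The ages in the labels and the age at surgery in the methods do not match, so the age of the mice is uncertain. None of the 4 groups carried a named genetic change, and each was 1 single-color array of RNA pooled from 4 to 6 mice. The spread between mice therefore could not be seen, and no difference below was tested.

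Muscle breaks down its contractile proteins largely through the ubiquitin-proteasome system, in which a ligase picks the substrate. Trim63 (MuRF1), Trim55 (MuRF2) and Trim54 (MuRF3) are RING-finger ligases that sit on the sarcomere and on microtubules, and Fbxo32 (atrogin-1, or MAFbx) is the substrate-binding F-box subunit of a Skp1-cullin complex. Fbxo40 is a muscle F-box protein that binds the insulin receptor substrate Irs1, and Asb2 is the substrate subunit of a cullin complex that degrades filamins. FoxO factors are held in the cytoplasm when the kinase Akt phosphorylates them. In the nucleus they bind the promoters of atrophy genes, Fbxo32 and Trim63 among them. Akt acts on the protein, so a FoxO transcript level does not measure FoxO activity.

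Promoter windows of 6 of the 9 genes, each from 250 bases before to 50 bases after the start site, were in the RefSeq promoter table of build GRCm38.p6. Trim55, Fbxo32 and Foxo4 had no entry. The FoxO motif GTAAACA, searched on both strands, was in 1 of the 6 genes, Trim63, and in 3.65% of all 32851 promoter windows. Its core TAAACA, which lies inside the longer motif, was in the same gene only and in 13.4% of all windows. The E-box CAGCTG was in 4 of the 6 genes and in 16.3% of all windows. These genes were Trim63, Trim54, Fbxo40 (both windows) and Asb2 (1 of the 2 windows). The 6 genes had 8 windows, and a gene counted if any of its windows held the motif. The counts of genes and the shares of windows are thus in unlike units. The 250 bases before the start site are shown for Trim63, the gene with the FoxO motif, and for Trim54 and Fbxo40, the 2 ligases that were highest on the array of TAC hearts at 8 weeks. Capitals mark the FoxO motif, read on the reverse strand as TGTTTAC, and the E-boxes.
Trim63, chr4:134314870-134315119, plus strand: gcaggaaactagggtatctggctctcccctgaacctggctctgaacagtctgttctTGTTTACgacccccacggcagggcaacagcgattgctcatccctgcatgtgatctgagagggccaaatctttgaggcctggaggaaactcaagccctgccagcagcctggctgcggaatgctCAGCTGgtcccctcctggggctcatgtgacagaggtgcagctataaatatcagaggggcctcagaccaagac
Trim54, chr5:31116362-31116611, plus strand: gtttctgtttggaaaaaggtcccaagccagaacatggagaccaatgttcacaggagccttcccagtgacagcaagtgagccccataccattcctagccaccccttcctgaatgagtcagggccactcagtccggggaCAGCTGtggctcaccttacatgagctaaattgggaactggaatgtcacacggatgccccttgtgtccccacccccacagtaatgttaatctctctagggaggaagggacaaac
Fbxo40, chr16:36990468-36990717, minus strand: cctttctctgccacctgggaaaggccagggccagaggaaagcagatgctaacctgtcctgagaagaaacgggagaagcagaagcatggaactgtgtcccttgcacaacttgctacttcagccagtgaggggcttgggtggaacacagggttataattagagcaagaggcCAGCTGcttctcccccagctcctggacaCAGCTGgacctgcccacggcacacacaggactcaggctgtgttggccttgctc
In Trim63 the FoxO motif began 194 bases before the start site and the E-box 72 bases before it. These matches are letters in a window and carry no measurement of binding.

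The values below are log2 signals relative to the array's own 75th percentile, so that 0 is the 75th percentile and 1 is 2 times its signal. They compare arrays for the same probe, not 1 gene with another. Between 54.7% and 58.5% of the 55681 probes were well above background, the scanner software's call that a spot is brighter than its surroundings, and no spot was saturated. The arrays followed their labels: 5 of 5 hypertrophy genes were over 1.5-fold higher in TAC hearts at both times, and Nppa, the atrial natriuretic peptide gene, was at 7.56 and 9.40 at 2 weeks and at 7.20 and 9.85 at 8 weeks. The tissue was heart, with Myh6 between 10.55 and 10.86 and the fast skeletal muscle genes Myh1, Myh2, Myh4, Actn3 and Mylpf not well above background on any array. The other 3 genes of that list were measured, and its summed level, 1041, 946, 980 and 795 times the 75th percentile, came mostly from the main Myh8 probe at 9.63 to 10.02. A second Myh8 probe read 3.95 to 4.33, so what the main probe measures in heart is in doubt. Measurement noise was read from 399 probes printed in 10 spots each. It is the SD of the difference between 2 arrays at a gene's signal and covers spot noise only, not the mice.

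The 3 MuRF genes did not move together. Trim63, the ligase of thick-filament proteins, was at 5.11 in sham and 4.98 in TAC hearts at 2 weeks, and at 5.10 in both at 8 weeks. Its log2 change was -0.13 at 2 weeks and 0.01 at 8 weeks, with a noise SD of 0.08, and the sign of the second value changed with the scaling. The second Trim63 probe gave -0.14 and -0.02. All 4 pools thus lay within 0.13 of one another on the main probe.

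Trim54 stood at 5.17 in sham and 5.25 in TAC hearts at 2 weeks, and at 5.37 and 5.71 at 8 weeks. The TAC array at 8 weeks was the highest of the 4, 1.26-fold (log2 0.34) above its sham array, against a noise SD of 0.08. At 2 weeks the log2 change was 0.08, about the noise.

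Trim55 moved the other way at 8 weeks. It was at 1.22 and 1.13 at 2 weeks and at 1.30 and 0.96 at 8 weeks, sham before TAC. The log2 change was -0.09 at 2 weeks and -0.34 at 8 weeks, with a noise SD of 0.10, and the TAC array at 8 weeks was the lowest of the 4. Trim54 and Trim55 thus had changes of like size and opposite sign at 8 weeks, each on 1 probe. Over the alternatives Trim54 ran from 0.33 to 0.51 and Trim55 from -0.37 to -0.17. The signs held, and the likeness in size depended on the processing.

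**Figure D1:**
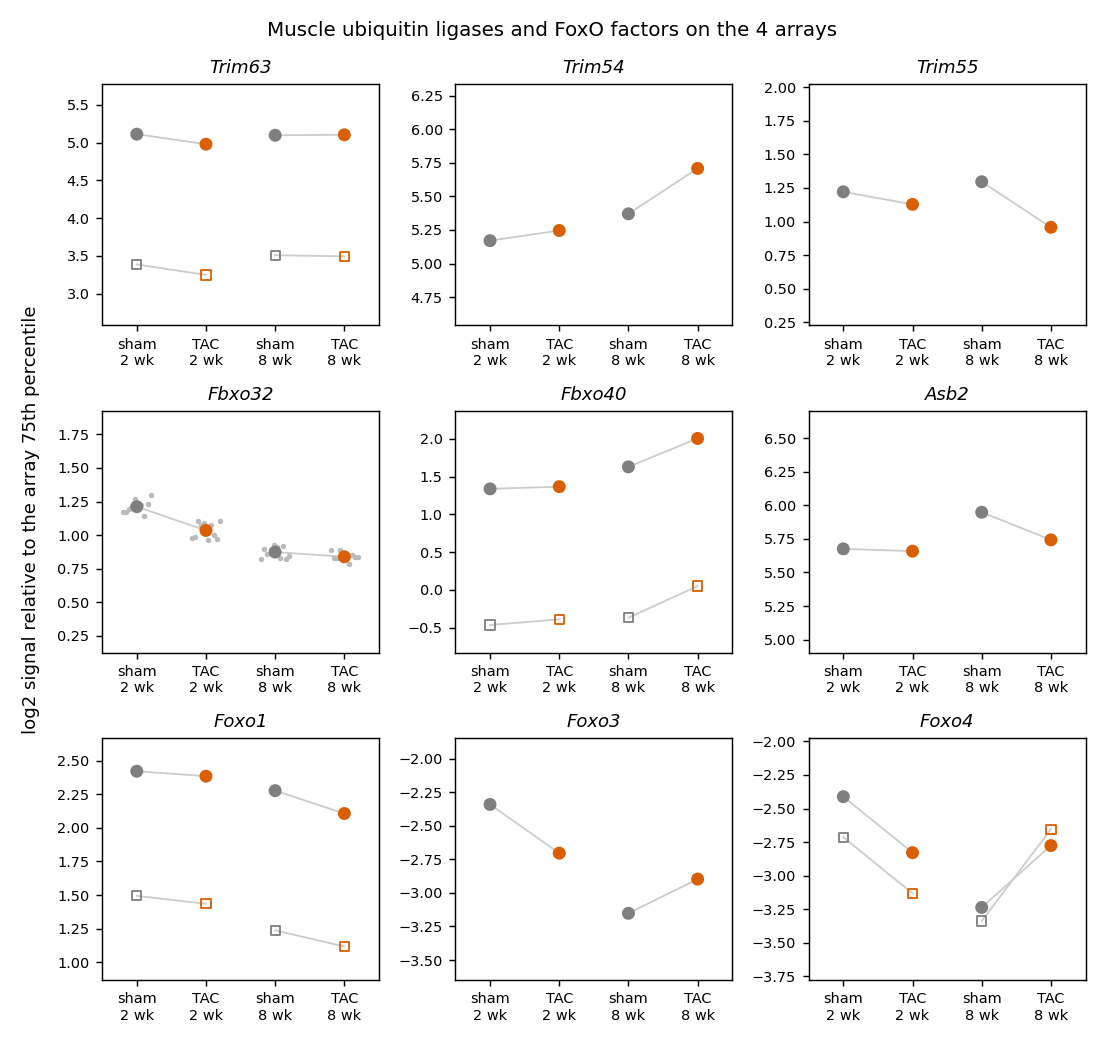
Each panel plots the log2 signal relative to the array's 75th percentile (y axis, whose span differs between panels) for 1 gene on the 4 arrays (x axis). Grey marks sham and orange TAC hearts, filled circles are the main probe, open squares a second probe, small grey dots the single spots of Fbxo32, and lines join sham and TAC of the same time. Fbxo40 and Trim54 are highest in TAC hearts at 8 weeks, Fbxo32 is highest in sham hearts at 2 weeks, and Foxo3 and Foxo4 are lowest in sham hearts at 8 weeks.

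Fbxo32 was the best measured of the 9, since its probe was printed in 10 spots. The spots ran from 1.14 to 1.30 in sham and from 0.96 to 1.11 in TAC hearts at 2 weeks, and from 0.82 to 0.93 in sham and 0.79 to 0.89 in TAC hearts at 8 weeks. The sham and TAC spots did not overlap at 2 weeks and did at 8 weeks. Means were 1.21, 1.03, 0.87 and 0.84, so TAC was lower by a log2 change of -0.18 at 2 weeks and -0.03 at 8 weeks, with a noise SD of 0.03. The sign at 8 weeks changed with the scaling. Both 8-week arrays were below both 2-week arrays, and the difference between the 2 sham arrays, -0.34, was larger than either change after TAC. Spots of 1 pool are not mice, so this precision belongs to the 4 RNA pools.

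Fbxo40 had the largest change among the ligases on the main probes. Its main probe was at 1.34 and 1.37 at 2 weeks and at 1.63 and 2.00 at 8 weeks, a log2 change of 0.03 at 2 weeks and 0.38 (1.30-fold) at 8 weeks with a noise SD of 0.10. The second probe, 0.07 and 0.42, moved alike. On the main probe the difference between the 2 sham arrays was 0.29, so the change at 8 weeks exceeded it by little. On the second probe the sham arrays differed by 0.10, against the change of 0.42. Irs1, the substrate that Fbxo40 binds, was at 2.54, 2.63, 2.65 and 2.48, the lowest on the array where Fbxo40 was highest, with log2 changes of 0.09 and -0.17. A second Irs1 probe gave 0.42 and -0.41. Over the alternatives the Irs1 difference between the 2 TAC arrays ran from -0.36 to 0.13, so its lowest array changed with the processing. Irs1 protein was not measured.

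Asb2 was at 5.68 and 5.66 at 2 weeks and at 5.95 and 5.74 at 8 weeks. Its log2 change was -0.02 at 2 weeks and -0.21 at 8 weeks, with a noise SD of 0.08, while the sham arrays differed by 0.27. Sham hearts at 8 weeks were the highest and the other 3 arrays lay within 0.08. Filamin genes, whose products Asb2 targets, were measured beside it. Flna had log2 changes of 0.27 and 0.29, and Flnc, the muscle filamin, of 0.57 and 0.94.

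Foxo1 was at 2.42 and 2.38 at 2 weeks and at 2.28 and 2.11 at 8 weeks. Its span over the 4 arrays, 0.31, was smaller than the 0.81 of Foxo3 and the 0.82 of Foxo4. Those 2 genes had noise SDs of 0.29 and 0.30, so the smaller span does not show that Foxo1 was steadier. The Foxo1 log2 change was -0.04 at 2 weeks and -0.17 at 8 weeks, with a noise SD of 0.09. A second probe gave -0.06 and -0.12. Both probes were lowest in TAC hearts at 8 weeks. With normexp, an alternative correction for background, the sign of the change at 2 weeks turned.

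Foxo3 and Foxo4 were dim, and their levels were uncertain by more than those of the other genes. Foxo3 was at -2.34, -2.70, -3.15 and -2.90 in the order sham and TAC at 2 weeks, then sham and TAC at 8 weeks. Its log2 change was -0.36 at 2 weeks and 0.25 at 8 weeks, with a noise SD of 0.29. Foxo4 was at -2.41, -2.83, -3.24 and -2.78, with log2 changes of -0.42 and 0.46 and a noise SD of 0.30. Over the alternatives the changes at 2 weeks ran from -0.40 to -0.16 for Foxo3 and from -0.46 to -0.12 for Foxo4. At 8 weeks they ran from 0.07 to 0.42 for Foxo3 and from 0.17 to 0.63 for Foxo4. A second Foxo4 probe gave -0.42 and 0.68, and the third Foxo4 probe was not well above background on any array. On the main probes sham hearts at 2 weeks were the highest and sham hearts at 8 weeks the lowest for both genes, and the TAC arrays lay between them. On the second Foxo4 probe, at -2.71, -3.13, -3.34 and -2.65, TAC hearts at 8 weeks were the highest. After each was centered on its own mean, the Foxo3 probe and the main Foxo4 probe had a root mean square difference of 0.095 over the 4 arrays. FoxO genes share a closely related DNA-binding domain, the probe sequences were not used here, and whether these probes tell the 2 transcripts apart was not tested.

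Counted over the main probes of the 9 genes, none was past 1.5-fold after TAC, while the second Foxo4 probe was 1.61-fold higher at 8 weeks. At 2 weeks 0 of 9 were higher and 0 of 9 lower by over 1.5-fold, where 4.17% of all 14474 measured genes were higher and 2.55% lower. At 8 weeks the counts were again 0 and 0, against 5.34% higher and 3.99% lower among 14635 genes. At 2-fold in either direction the shares of all genes were 1.45% at 2 weeks and 2.68% at 8 weeks, and no ligase or FoxO gene passed. With shares this low, a count of 0 among 9 genes does not set them apart from the other genes. The largest log2 change was the -0.42 of Foxo4 at 2 weeks and its 0.46 at 8 weeks. The median change of the 9 was -0.09 at 2 weeks and 0.01 at 8 weeks, and that of all genes -0.01 at both times.

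Set against spot noise, 1 gene at 2 weeks (Fbxo32) differed between TAC and sham by over 2 noise SDs. At 8 weeks 4 genes did (Trim54, Trim55, Fbxo40 and Asb2). The share of all genes past 2 noise SDs was not counted, so these counts do not set the 9 genes apart. The median size of the log2 change over all genes, whatever its sign, was 0.15 at 2 weeks and 0.17 at 8 weeks. The difference between the 2 sham pools, which holds no TAC, was larger than the change after TAC for 7 of 9 genes at 2 weeks, all but Trim63 and Trim55, and for 5 of 9 at 8 weeks. Trim54, Trim55, Fbxo40 and Foxo1 were the 4 whose change at 8 weeks was the larger, on the main probes. Second probes of Foxo1 and Foxo4 went the other way. Their sham differences were -0.26 and -0.62, against changes of -0.12 and 0.68 at 8 weeks. The share of all genes whose sham difference exceeded the change was not counted. The median size of the difference between the sham arrays was 0.27 for the 9 genes and 0.11 for all genes. After TAC the median size of the change of the 9 genes was 0.09 at 2 weeks and 0.25 at 8 weeks. In pooled whole hearts, fewer cells of a type and less RNA per cell cannot be told apart. At 8 weeks all 8 cardiomyocyte marker genes were lower in TAC hearts, with a median log2 change of -0.18 (6 of 8 and -0.05 with quantile normalization, 5 of 8 and -0.01 with no normalization), and all 6 fibroblast marker genes were higher, with a median of 0.87. The summed cardiomyocyte level was 9420 and 8821 times the 75th percentile at 2 weeks and 8909 and 7865 at 8 weeks, and the summed fibroblast level 198 and 271, then 222 and 320. Their part in the changes of the ligases was not tested.

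**Figure D2:**
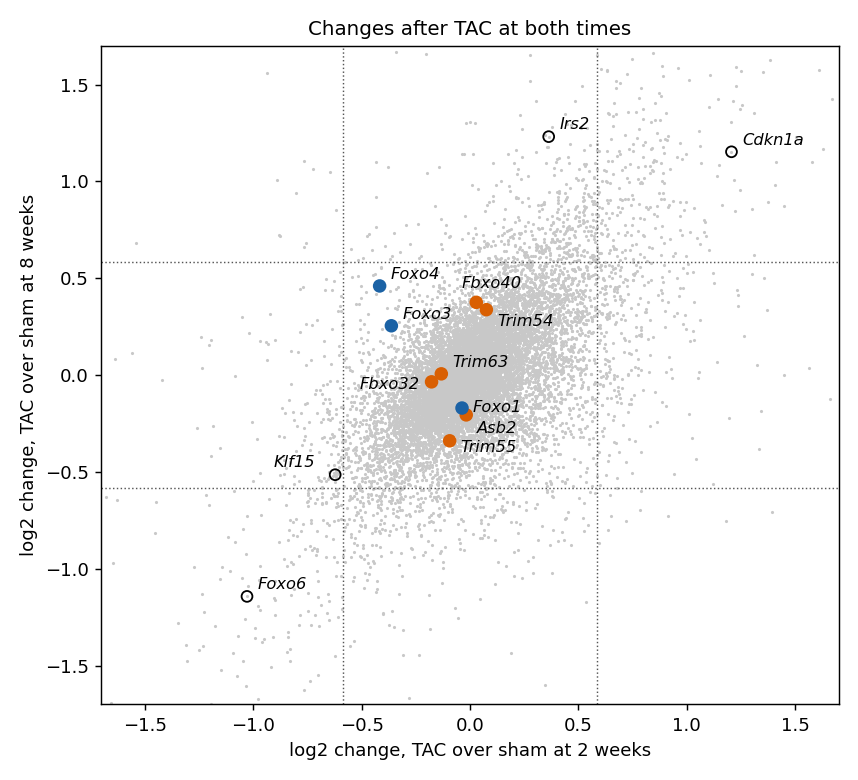
The x axis is the log2 change of TAC over sham at 2 weeks and the y axis that at 8 weeks, for genes well above background on all 4 arrays (grey dots, those beyond 1.7 not drawn). Orange points are the 6 ligases, blue points Foxo1, Foxo3 and Foxo4, open circles 4 related genes, and dotted lines mark 1.5-fold. All 9 lie inside the dotted lines, Foxo3 and Foxo4 at upper left with opposite signs, and Foxo6 at lower left with -1.03 and -1.14.

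More of these genes passed 1.5-fold between the 2 times than between TAC and sham, 2 between the sham arrays and 1 between the TAC arrays. These 2 comparisons share no array with each other, though each shares its arrays with the comparisons of TAC and sham. Between the sham arrays, Foxo3 (log2 -0.81) and Foxo4 (-0.82) were over 1.5-fold lower at 8 weeks, where 1.21% of 14411 genes were lower and 1.61% higher, and 0.569% passed 2-fold in either direction. With normexp the values were -0.38 and -0.41, inside the threshold. Between the TAC arrays the same difference was -0.19 for Foxo3 and 0.05 for Foxo4. The second Foxo4 probe gave -0.62 between the sham arrays and 0.48 between the TAC arrays. Fbxo40 was over 1.5-fold higher at 8 weeks between the TAC arrays, with 0.64 against 0.29 between the sham arrays, where 2.82% of 14813 genes were higher and 2.90% lower, and the mean of its 2 probes gave 0.54. Age, time after surgery and the pool of mice cannot be told apart in these differences.

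The remaining genes differed less with time. Trim54 was higher at 8 weeks in both, by 0.20 in sham and 0.46 in TAC hearts. Fbxo32 was lower in both, by log2 differences of -0.34 and -0.20 (0.07 for the TAC arrays with no normalization between arrays), and so was Foxo1, by -0.14 and -0.28. Trim63, Trim55 and Asb2 had -0.01, 0.07 and 0.27 in sham hearts and 0.12, -0.17 and 0.08 in TAC hearts. In all, 3 genes were higher in both, 3 were lower in both and 3 differed in sign. Of all genes, 56.1% were higher at 8 weeks between the sham arrays and 54.7% between the TAC arrays. The shares of all genes higher in both or lower in both were not counted, so these counts set no gene group apart. With no normalization between arrays Fbxo32, Trim55 and Foxo3 turned positive between the TAC arrays, so the counts also depend on the processing.

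**Figure D3:**
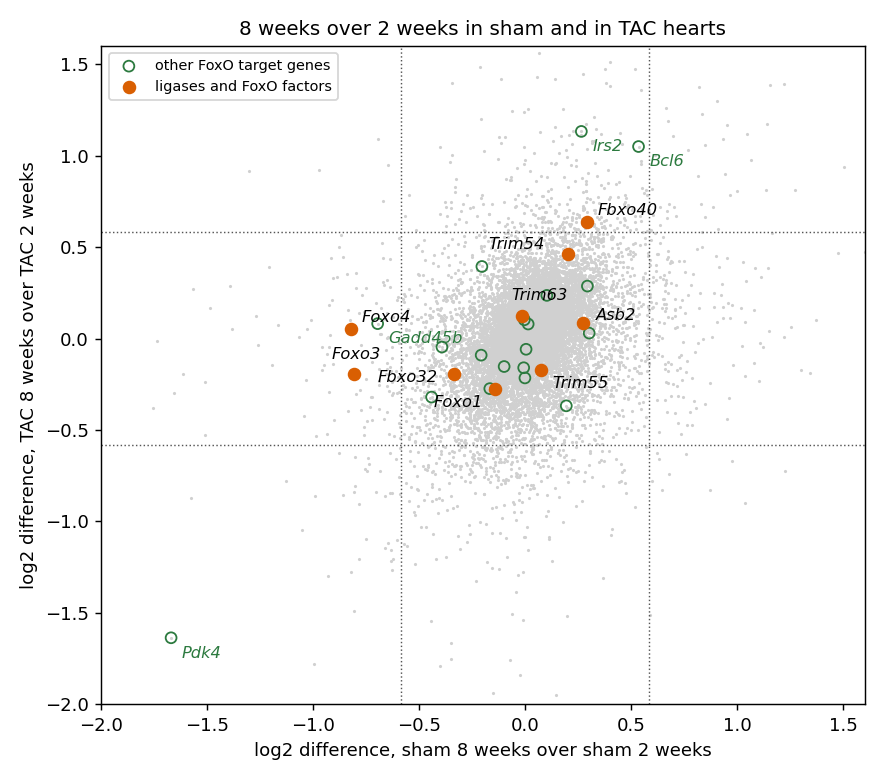
The x axis is the log2 difference between sham hearts at 8 and 2 weeks and the y axis that between TAC hearts at 8 and 2 weeks, for genes well above background on all 4 arrays (grey dots, those beyond the axes not drawn). Orange points are the 9 ligases and FoxO factors, green circles 19 other FoxO target genes, and dotted lines mark 1.5-fold. Fbxo40 and Trim54 lie at upper right, Foxo3 and Foxo4 pass the threshold between the sham arrays and not between the TAC arrays, and Pdk4 lies at lower left with -1.67 and -1.64.

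3 of the 9 genes spanned over 1.5-fold across the 4 arrays, and the genes with the most similar profiles were sought for them. Likeness was the root mean square difference of log2 values over the 4 arrays after each gene was centered on its own mean. For Fbxo40 the nearest of 13502 genes were Mcm2 (0.026), a DNA replication helicase gene, Atp6v0e2 (0.028), a vacuolar proton pump gene, and Stk40 (0.031), a kinase-like gene, and 149 genes lay within 0.1. For Foxo3 the nearest were Zcchc13 (0.048), Cdk2 (0.051) and Scn7a (0.055), with 21 genes within 0.1. For Foxo4 they were Sinhcaf (0.047), Treml4 (0.061) and Nfatc2 (0.069), with 12 genes within 0.1. Over 4 arrays and this many genes such neighbors are only a description.

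Genes of the machinery that the ligases work with were counted in the same way. Among all genes, 4.17% were over 1.5-fold higher and 2.55% lower at 2 weeks, and 5.34% and 3.99% at 8 weeks. The counts below were not tested against these shares. Of 20 ligase partners and ubiquitin-conjugating enzymes, among them Skp1 and Cul1 of the Fbxo32 complex, 0 were past 1.5-fold at 2 weeks and 1 at 8 weeks, with medians of -0.06 and 0.01. The 1 gene was the conjugating enzyme gene Ube2d1, named after its values were seen, at -2.28, -2.71, -2.63 and -1.71, with log2 changes of -0.43 and 0.92, the latter 0.27 with normexp. The 4 ubiquitin genes had medians of 0.03 and 0.03 and none was past 1.5-fold. Nor was any of the 31 proteasome subunits, whose medians were -0.01 and 0.14. At 8 weeks 26 of the 31 were higher in TAC hearts, 26 to 31 over the alternatives tried, where 48.3% of 14302 genes were higher, and the largest log2 change was the 0.38 of Psma5. Between the TAC arrays 30 of 31 were higher at 8 weeks, 28 to 31 over the alternatives, where 54.7% of all genes were higher. Between the sham arrays 19 of 31 were higher, where 56.1% of all genes were. That sham count was 15 with the array median and 29 with no normalization. The 5 immunoproteasome genes had medians of -0.06 and 0.18, with none past 1.5-fold.

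Among 26 other muscle ligases, 0 were past 1.5-fold at 2 weeks, and 1 was higher and 1 lower at 8 weeks. Of all genes, 4.17% were higher and 2.55% lower at 2 weeks, and 5.34% and 3.99% at 8 weeks. Klhl40, a cullin adaptor that stabilizes thin-filament proteins, was at 1.64, 2.01, 1.80 and 2.49, with log2 changes of 0.37 and 0.69. Kbtbd13, named after its values were seen, had 0.41 and -0.86 at a dim signal, the latter -0.37 with normexp and inside the threshold. The autophagy genes under FoxO control, 19 in all, had medians of -0.09 and 0.06 with none past 1.5-fold. At 2 weeks 14 of the 19 were lower in TAC hearts, where 48.5% of 14302 genes were higher. The mitophagy kinase gene Pink1 came closest to the threshold with -0.58.

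**Figure D4:**
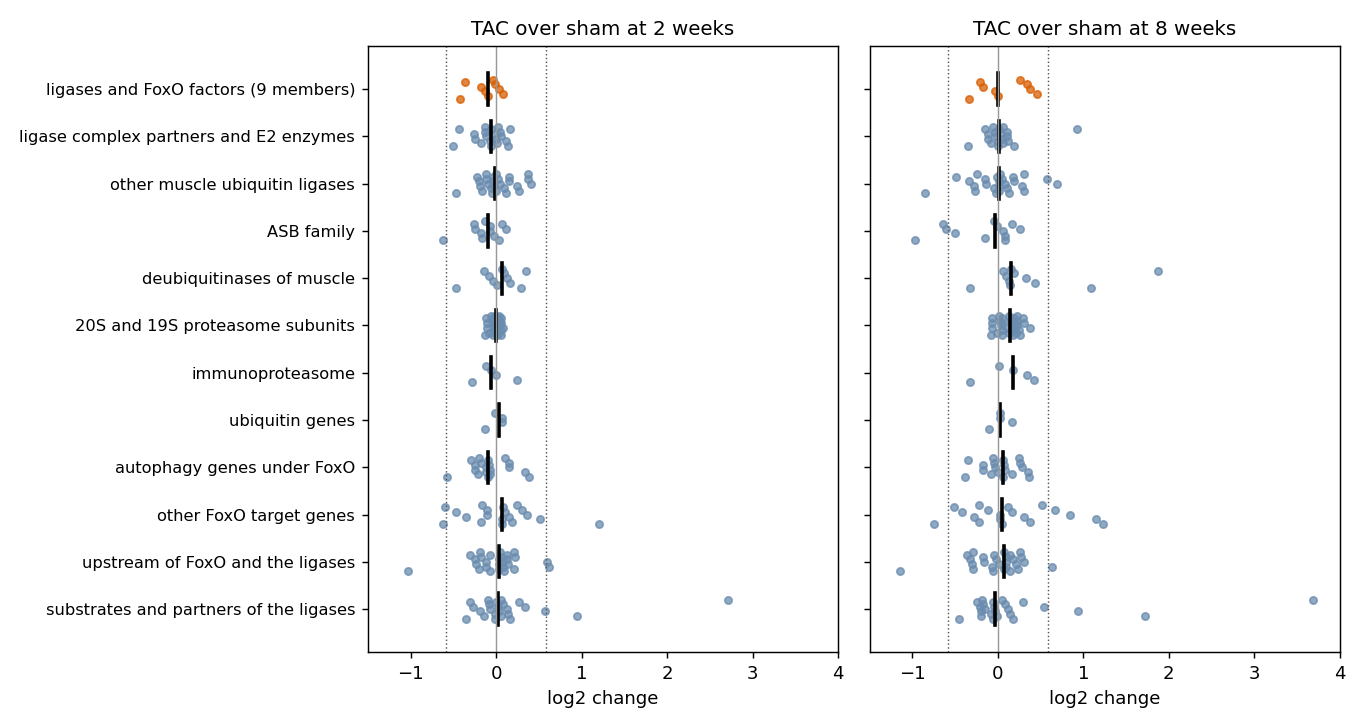
The x axis is the log2 change of TAC over sham at 2 weeks (left) and 8 weeks (right), the rows are the gene lists, and each point is a gene well above background on all 4 arrays. Black bars are medians and dotted lines mark 1.5-fold. The 9 ligases and FoxO factors (orange) and the 31 proteasome subunits lie inside the lines at both times, and Myh7 lies farthest right in the bottom row with 2.71 and 3.69.

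Other FoxO target genes went in both directions. Of 19 measured, 1 was higher and 2 lower by over 1.5-fold at 2 weeks, and 4 were higher and 1 lower at 8 weeks. Medians were 0.07 and 0.04. The shares of all genes were 4.17% higher and 2.55% lower at 2 weeks, and 5.34% and 3.99% at 8 weeks. The list was not tested against them. The cell cycle inhibitor gene Cdkn1a was at 1.68 and 2.89 at 2 weeks and at 1.58 and 2.74 at 8 weeks, 2.31-fold and 2.22-fold higher in TAC hearts. Irs2, an insulin receptor adaptor gene, was at 2.77, 3.14, 3.04 and 4.27, with log2 changes of 0.36 and 1.23. Klf15, a metabolic transcription factor gene, had -0.62 and -0.51, and Bcl2l11, a dim gene that encodes the death protein Bim, -0.59 and -0.74. With normexp Klf15 at 2 weeks (-0.57) and Bcl2l11 (-0.33 and -0.30) were inside the threshold. Gadd45b (0.07 and 0.85) and Trib1 (0.06 and 0.66), both named after their values were seen, made up the count at 8 weeks. At 8 weeks Cdkn1a and Irs2 were thus higher, where Trim63 and Fbxo32 had changes of 0.01 and -0.03. All of these genes have regulators other than FoxO.

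Among these target genes the time difference was largest for Pdk4, the kinase gene that closes pyruvate entry into mitochondria, named after its values were seen. It was at 6.74 and 6.83 at 2 weeks and at 5.07 and 5.19 at 8 weeks, so that both 8-week arrays were far below both 2-week arrays. The log2 changes after TAC were only 0.08 and 0.12. Fbxo32 and Foxo1 were lower at 8 weeks in both sham and TAC hearts too, by much less. Of the 19 target genes, 2 were over 1.5-fold lower between the sham arrays, Pdk4 and Gadd45b (-0.70), beside 1.21% of all genes. In both comparisons of time 8 were lower. The share of all genes lower in both was not counted.

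Upstream of FoxO, 27 of 30 listed genes were measured, and the others (Mstn, Myog and Dach2) were not well above background on any array. At 2 weeks 2 were higher and 1 lower by over 1.5-fold, and at 8 weeks 1 and 1, with medians of 0.03 and 0.07. All genes had shares of 4.17% higher and 2.55% lower at 2 weeks, and 5.34% and 3.99% at 8 weeks. Foxo6, the remaining FoxO family gene, had the largest changes of this list. It was at 0.90 in sham and -0.13 in TAC hearts at 2 weeks, and at 1.48 and 0.34 at 8 weeks, 2.04-fold and 2.21-fold lower in TAC hearts. The sham arrays differed by 0.58, and a second Foxo6 probe, well above background on 2 arrays, gave -0.53 and -0.72. Both TAC arrays lay below both sham arrays, which was true of none of Foxo1, Foxo3 and Foxo4 on the main probe. The growth factor gene Igf1 had log2 changes of 0.59 and 0.63 on the main probe, which were 0.38 and 0.39 with normexp. The other Igf1 probes gave 0.43 and -0.05, 0.67 and 0.44, and 0.50 and 0.47, all inside 1.5-fold at 8 weeks. Sgk1, a kinase gene whose product phosphorylates FoxO, had 0.62 (0.57 with normexp) and 0.14, and Akt1 had 0.22 and 0.15.

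Most substrates and partners of the ligases were inside 1.5-fold. Of 24, 2 were higher and 0 lower at 2 weeks, and 3 and 0 at 8 weeks, beside the 4.17% and 5.34% of all genes that were higher, with medians of 0.03 and -0.04. Myh7, the slow myosin heavy chain gene and a hypertrophy marker, was at 6.12 and 8.83 at 2 weeks and at 6.11 and 9.81 at 8 weeks. Rcan1, a calcineurin inhibitor gene, had log2 changes of 0.95 and 1.72, and Flnc passed at 8 weeks. Myh6, the adult myosin heavy chain gene, had -0.19 at both times on the main probe and -0.36 and -0.54 on a second probe. Ppp3ca, the calcineurin subunit gene whose product Fbxo32 binds, had -0.02 and -0.06, and Eif3f, the initiation factor gene that is also a target of Fbxo32, had -0.14 and -0.04. Protein turnover, the process these ligases carry out, was not measured by these arrays.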

How the data were processed

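RNA of 4 pools of mouse hearts was hybridized to 4 single-color Agilent SurePrint G3 Mouse GE 8x60K arrays. The authors deposited scanner files in which each spot has a background-corrected intensity, with no normalization between arrays, and a series table of the same intensity values on a linear scale. Their processing notes name Feature Extraction 9.1 and the file headers 10.7.3.1. Probe positions in the files are on mm9 and were not used.

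Signals were put on the log2 scale and set relative to the 75th percentile of all non-control probes on the same array. Spots flagged as outliers (0.238% to 0.282%) were dropped, and spots of the same probe were averaged. Transcript accessions were named through RefSeq and GENCODE tables, and 29501 of 55681 probes received a symbol. A gene took its brightest probe. A gene counted as past the fold when it differed by over 1.5-fold and was well above background on the brighter array, beside all genes well above background on both arrays. With 1 array per condition no test was made, and the number of arrays limits the precision. The counting was tested on simulated data.

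The genes, the pathway and marker lists and the rules were chosen with earlier results of these data known. Genes named were the 9 ligases and FoxO factors, of each list at most 4 genes with the largest change in the same direction at both times that passed 1.5-fold at either, Myh6, Myh7, Flna, Flnc, Irs1, Ppp3ca, Eif3f and Nppa, and the 3 nearest profiles. A gene that this rule also selects is not reported here. Any other gene was named after its values were seen. Alternatives were quantile normalization, the array median, no normalization, the percentile over spots, normexp background correction of the median spot signal (limma 3.58.1 under R 4.3.3, offset 50), the deposited series table, outlier spots kept, the mean of all probes, 2-fold, and no filter on dim probes. Calculations used Python 3.11.15, pandas 2.3.3 and numpy 2.4.6, and plots matplotlib 3.10.9.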

Additional observations from a re-analysis of the deposited data

Results flagged for a closer look

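Foxo4 had opposite directions after TAC at the 2 times, with a log2 change of -0.42 at 2 weeks and 0.46 at 8 weeks. The difference of 0.88 was not tested, since each time has 1 array per condition. The second Foxo4 probe gave -0.42 and 0.68. Both probes were dim, and the difference between the sham arrays was -0.82 on the main probe. Neither change of the main probe was past 2 noise SDs. Over the alternatives the Foxo4 change ran from -0.46 to -0.12 at 2 weeks and from 0.17 to 0.63 at 8 weeks.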

How the results depend on the processing

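No gene among the 9 passed 1.5-fold at 2 weeks under any alternative, and 1 did at 8 weeks, Foxo4 with no normalization between arrays. The count of 2 between the sham arrays (Foxo3 and Foxo4) fell to 0 with normexp background correction, which gave -0.38 for Foxo3 and -0.41 for Foxo4, and to 0 at 2-fold. Between the TAC arrays the count of 1 became 2 (Trim54 and Fbxo40) with no normalization, 0 with the mean of all probes of a gene and 0 at 2-fold. The alternatives for the TAC arrays, for the single time differences and for genes other than the 9 were chosen after seeing the data. With no normalization the median of all genes moved to 0.16 at 8 weeks, 0.12 between the sham arrays and 0.30 between the TAC arrays, and with the array median to 0.12 between the TAC arrays, so values under those settings carry that shift. The median change of the 9 genes after TAC ran from -0.13 to -0.09 at 2 weeks and from -0.01 to 0.17 at 8 weeks, the highest with no normalization. Of 288 single values of the 9 genes under the alternatives, 38 moved by more than the noise, and of 1280 values of other genes 218 did. No value past 1.5-fold changed sign. Among the changes of the 9 genes after TAC, the signs that turned belonged to changes of at most 0.04 in size, and with no normalization the differences between the TAC arrays turned to 0.07 for Fbxo32, 0.10 for Trim55 and 0.08 for Foxo3. No paired analysis was possible because each condition has 1 array and the labels give no replicate numbers.

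The difference between 2 pools of mice is unknown beyond the 1 pair of sham arrays, which also differ in time and age. Foxo3, Foxo4, Ube2d1, Kbtbd13, Bcl2l11, Asb15 and Otud1 have noise SDs of 0.20 or more, so small changes were not detectable. The cause of the shifts between settings was not tested.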

Other observations

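Deubiquitinase genes and relatives of Asb2 were measured beside the ligases. Of 11 muscle deubiquitinases measured, 0 were past 1.5-fold at 2 weeks and 2 were higher at 8 weeks. The shares of all genes were 4.17% higher and 2.55% lower at 2 weeks, and 5.34% and 3.99% at 8 weeks. Otud1, a deubiquitinase gene, was at -2.35, -2.26, -2.04 and -0.17 in the order sham and TAC at 2 weeks, then sham and TAC at 8 weeks, with log2 changes of 0.09 and 1.87, the latter 1.15 with normexp, at a noise SD of 0.20. Uchl1, a ubiquitin hydrolase gene known mainly from neurons, was at -0.39, -0.04, -0.48 and 0.62, with log2 changes of 0.35 and 1.09. For both genes the TAC array at 8 weeks stood above the other 3.

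Of the relatives of Asb2, 12 were measured, with 1 lower at 2 weeks and 3 lower at 8 weeks by over 1.5-fold and none higher. Among all genes, 2.55% were lower and 4.17% higher at 2 weeks, and 3.99% and 5.34% at 8 weeks. Asb14 had log2 changes of -0.62 and -0.50 and was lower on both TAC arrays than on both sham arrays. Asb15, a dim gene, had -0.13 and -0.96, with a noise SD of 0.36. With normexp all of these calls were inside the threshold, at -0.56 for Asb14 at 2 weeks and, at 8 weeks, -0.42 for Asb15, -0.48 for Asb4 and -0.43 for Asb18. The brightest probes of Asb4 and Asb18 gave -0.61 and -0.64 at 8 weeks, and another probe of each gave -0.24 and -0.13. The dimmest Asb18 probe, well above background on 3 arrays, gave 0.11, and the main Asb18 probe differed by 0.65 between the sham arrays.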
